A study of Mus musculus with 15 samples.

Results

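The carnitine shuttle is described here by 8 genes of the 43432 gene identifiers counted, taken by name because of the step their proteins carry out: Cpt1a, Cpt1b, Cpt1c, Slc25a20, Cpt2, Crat, Crot and Slc22a5. They were chosen with earlier results of these data known. All 8 were found and all 8 passed the filter on low counts, so they were tested among 16736 genes. Their transcripts were measured by RNA sequencing in 266-6 cells, a line of mouse pancreatic acinar tumour cells whose tumour arose from a viral T antigen driven by an elastase promoter. The series addresses how ligands of RARα and of its partner, the retinoid X receptor (RXR), influence each other. Cells of this 1 line spent 24 h in stripped medium. They then received for 24 h AM580 (a RARα agonist), CD3254 (which activates RXR), both compounds at once (the joint treatment), 9-cis retinoic acid (a ligand of both receptor families) or the vehicle DMSO. Each treatment had 3 libraries. No genotype differs between the groups, the labels give no ligand concentrations, and they are silent on whether replicates were separate cultures. The p-values thus measure only the spread between these libraries, which may be technical.

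Long-chain fatty acids cross into mitochondria as carnitine esters. A carnitine palmitoyltransferase 1 on the outer membrane moves the acyl group from coenzyme A to carnitine, the carrier encoded by Slc25a20 passes acylcarnitine across the inner membrane, and Cpt2 restores the acyl-CoA inside. The first step is inhibited by malonyl-CoA and is held to control the rate of fatty acid oxidation. RXR pairs with the fatty acid-sensing receptors PPARα and PPARδ, and Cpt1a, Slc25a20 and Cpt2 are known PPAR targets in liver and muscle.

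The promoters shown are those of Cpt1a and Slc25a20, whose CD3254 and joint-treatment libraries all lay above DMSO, and of Cpt1c, whose libraries did not. RefSeq's promoter table (GRCm38.p6) held 6 of the 8 members, and Cpt1b and Crat were not matched. Each sequence runs 5′ to 3′ on the gene's strand over 200 bases, from 250 to 51 bases before the RefSeq start site. It lies at chr19:3323051-3323250 on the plus strand for Cpt1a, at chr9:108661886-108662085 on the plus strand for Slc25a20 and at chr7:44974902-44975101 on the minus strand for Cpt1c. The Cpt1a window is inside the gene as GENCODE annotates it, from base 3322334, and the sequence before that base was not searched. Capitals mark the nuclear receptor core motif AGGTCA and the GC box GGGCGG, read on either strand.
Cpt1a: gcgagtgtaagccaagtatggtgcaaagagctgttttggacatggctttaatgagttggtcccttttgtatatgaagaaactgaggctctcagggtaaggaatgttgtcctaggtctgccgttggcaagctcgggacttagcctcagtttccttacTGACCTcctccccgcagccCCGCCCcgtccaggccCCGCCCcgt
Slc25a20: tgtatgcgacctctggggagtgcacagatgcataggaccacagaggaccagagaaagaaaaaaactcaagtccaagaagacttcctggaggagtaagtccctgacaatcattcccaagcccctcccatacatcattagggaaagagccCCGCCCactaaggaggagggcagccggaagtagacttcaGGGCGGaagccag
Cpt1c: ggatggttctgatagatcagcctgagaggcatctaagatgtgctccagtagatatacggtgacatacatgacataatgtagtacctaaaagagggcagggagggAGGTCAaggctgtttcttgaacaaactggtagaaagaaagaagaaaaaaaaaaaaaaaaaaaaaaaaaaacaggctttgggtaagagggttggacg
The Cpt1a window held 1 core motif, on the minus strand and beginning 94 bases before the start site, and 2 GC boxes. In Slc25a20 there were 2 GC boxes and no core motif, and in Cpt1c 1 core motif, 146 bases before the start site, and no GC box. The windows of Cpt2, Crot and Slc22a5 held no core motif. Among the 32817 promoters of the table, 11.4% held a core motif and 24.6% a GC box in the same window. Paired core motifs in direct repeat were searched on both strands as AGGTCANAGGTCA (DR1), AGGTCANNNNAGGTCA (DR4) and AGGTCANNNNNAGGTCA (DR5). Each contains the core motif, none lay in the 6 windows, and they were found in 0.0244%, 0.0122% and 0.00914% of all promoters in that order. A match, or its absence, describes only these letters in this window.

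The libraries held between 28501170 and 46801058 reads on genes in 14 cases and 14600962 in replicate 3 of 9-cis retinoic acid, where 63.0% of reads fell on no gene. The largest axis of variation, with 48.3% of the variance, parted 5 libraries from the other 10, and 1 library of each treatment was among the 5: AM580 replicate 1, CD3254 replicate 1, joint treatment replicate 2, 9-cis retinoic acid replicate 1 and DMSO replicate 1. The labels name no batch for them. Of 12 low-oxygen genes 11 were in the table, and all 11 were higher in the 5 libraries within every treatment, with a summed level of 6069 to 8694 CPM in the 5 and 1042 to 1473 CPM in the 10. CPM are counts per 1000000 reads on genes, scaled by TMM factors. The tests were therefore made without and with a term for this library set. Values are from the fit with the term unless said otherwise, and no member passed without it. Of 12 acinar markers, 10 averaged at least 1 CPM and the lipase Pnlip and the amylase Amy2a5 did not. Ins1, Ins2, Gcg and Sst, the hormone genes of islets, were under 1 CPM, as were the adipocyte markers Adipoq, Plin1 and Ucp1. Chga, the other endocrine marker, averaged at least 1 CPM, and the 5 endocrine markers summed to between 166 and 447 CPM in a library. Of the markers of other cells, 4 of 6 ductal, 4 of 5 stellate or fibroblast, 1 of 3 immune, 1 of 3 endothelial and 1 of 4 striated muscle genes averaged at least 1 CPM. Less of a transcript per cell and fewer cells with it cannot be told apart in these bulk libraries.

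Cpt1a, the liver-type carnitine palmitoyltransferase 1, was the only member that passed the test for CD3254. It roughly doubled with CD3254 alone and with the joint treatment when the library set was a term, and the other 7 members passed the test in no comparison. Cpt1a (ENSMUSG00000024900) lies on the plus strand of chr19:3322334-3385733 in GENCODE's annotation of GRCm38. Its level was 84.1, 159 and 140 CPM in the 3 AM580 libraries (replicates 1 to 3), and 130, 242 and 216 CPM with CD3254. With the joint treatment it was 256, 146 and 226 CPM, with 9-cis retinoic acid 69.8, 143 and 148 CPM, and with DMSO 67.5, 126 and 96.5 CPM. Every library that received CD3254, alone or with AM580, was above every DMSO library, although the lowest of them, CD3254 replicate 1, was only just above DMSO replicate 2. The AM580 and 9-cis retinoic acid libraries overlapped both those of CD3254 and those of DMSO. Mean levels were 128 ± 39.1 CPM with AM580, 196 ± 58.3 with CD3254, 209 ± 57.2 with the joint treatment, 120 ± 43.9 with 9-cis retinoic acid and 96.5 ± 29.1 with DMSO (SD, n = 3 each).

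**Figure D1:**
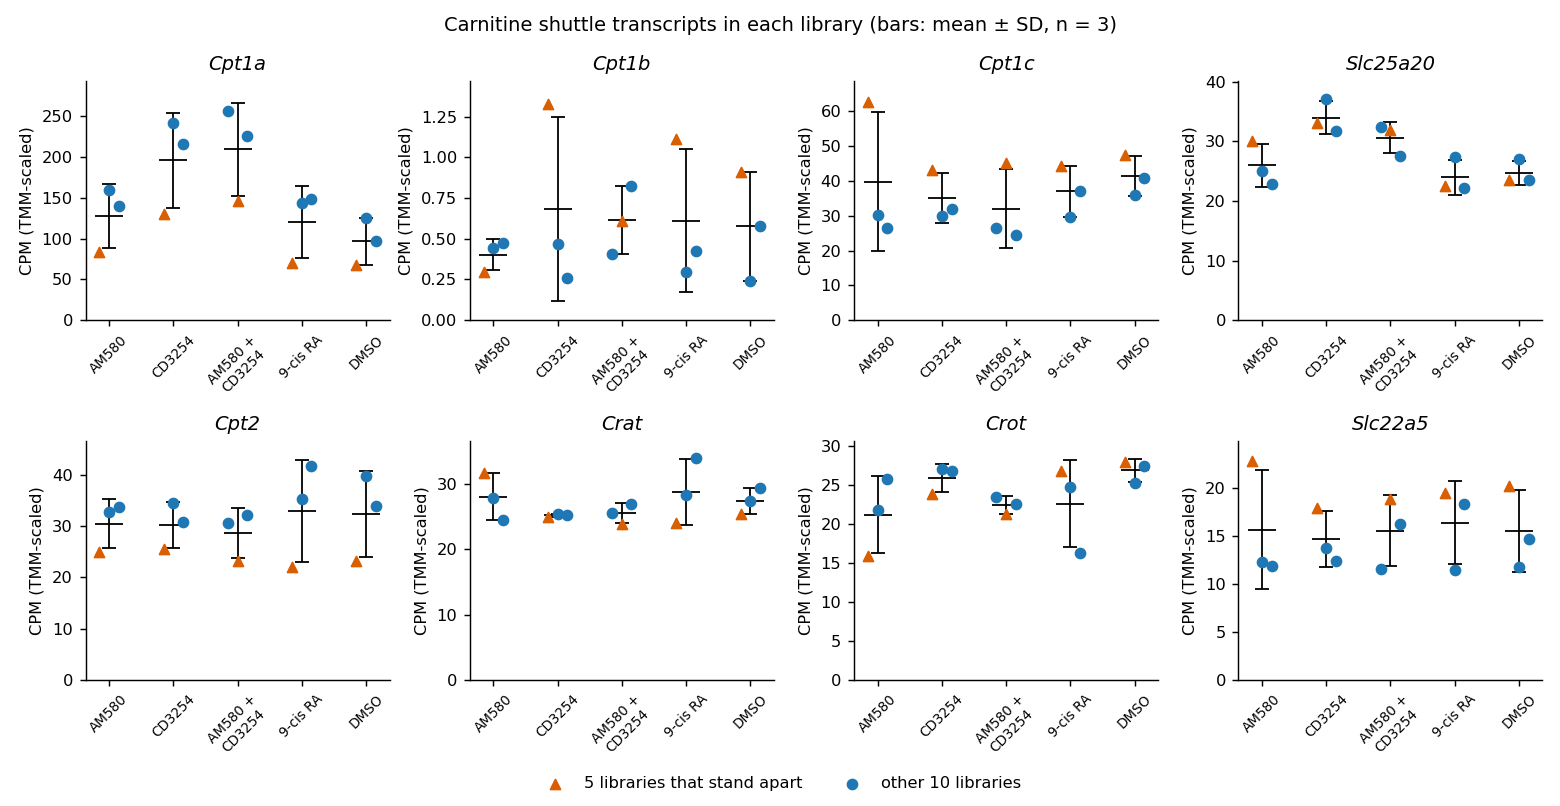
Level of each carnitine shuttle gene (CPM, TMM-scaled, axes from 0) in every library, by treatment from left to right: AM580, CD3254, both, 9-cis retinoic acid and DMSO. Points are libraries, triangles mark the 5 libraries that stand apart, and bars are the mean ± SD of 3. For Cpt1a, the CD3254 and joint-treatment libraries, from 130 to 256 CPM, lie above the DMSO libraries, while Cpt2, Crat, Crot and Slc22a5 show overlapping treatments in most pairs.

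Without the library set term, edgeR's quasi-likelihood test with Benjamini-Hochberg adjustment over all genes (FDR) called none of the 8 members against DMSO after any treatment. The background in that fit was 0 percent of all genes called for AM580, CD3254 and 9-cis retinoic acid and 0.0179 percent for the joint treatment, against 204, 76, 243 and 251 genes whose unadjusted p was under 0.05 for AM580, CD3254, 9-cis retinoic acid and the joint treatment. DESeq2 called no member either. The fitted log2 change of Cpt1a was 1.02 ± 0.36 with CD3254 (SE, FDR = 1) and 1.12 ± 0.36 with the joint treatment (FDR = 0.9999). In the other 8 comparisons no member passed either, with a background of 0.0418 percent of genes for the AM580 main effect and 0 percent for the rest. Over all 12, an unadjusted p under 0.05 was found in 8 of 96 tests on members without the term, or 8.33%, beside 1.03% of the tests on all genes. With the term it was found in 15 of 96, or 15.6%, beside 3.43% of those on all genes. Without the term these tests were all of Cpt1a and Slc25a20, and with it all of these genes and Cpt1c. The remaining members had none, so the shares do not describe the shuttle as a whole. The tests share libraries, and the members and the library set were chosen with earlier results of these data known. These shares are therefore a description, and their distance from the shares of all genes is no evidence about the shuttle. Between both fits the log2 changes of the 7 members other than Cpt1b differed by at most 0.09, and those of Cpt1b by at most 0.28.

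With the term, the size of the change was nearly the same and its error smaller. Cpt1a rose 2.01-fold with CD3254 relative to DMSO, a log2 change of 1.01 ± 0.13 (SE, 95% interval 0.72 to 1.29, edgeR FDR = 0.0147). It rose 2.17-fold with the joint treatment, a log2 change of 1.12 ± 0.13 (interval 0.83 to 1.40, edgeR FDR = 0.00263). In that fit 0.0239 percent of all genes were called for CD3254 and 0.125 percent for the joint treatment. By its p-value Cpt1a stood at rank 3 of 16736 genes for CD3254 and rank 5 for the joint treatment. Leaving out 1 library at a time, with the term, the joint-treatment call held in 15 of 15 fits. The call for CD3254 alone held in 8 of 15. It was lost without any 1 of the CD3254 libraries (FDR 0.146, 0.223 and 0.0770 without replicates 1, 2 and 3), without any 1 of the DMSO libraries (FDR 0.0819, 0.0506 and 0.199) and without joint treatment replicate 2 (FDR 0.0538). It was also lost with the replicate number as a block in the 12 libraries of AM580, CD3254, 9-cis retinoic acid and DMSO, at a log2 change of 1.01 (edgeR FDR = 0.113). Whether the numbers pair cultures is not known. The background there was 0 percent of genes called, with 255 genes under 0.05 before adjustment. In those 12 libraries replicate 1 is also the library of the 5-library set, so that the block holds the set.

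The CD3254 main effect sets the mean of the CD3254 and joint treatments against the mean of AM580 and DMSO, so that 6 libraries with CD3254 stand against 6 without. For Cpt1a it was 1.82-fold, a log2 change of 0.87 ± 0.09 with the term (interval 0.67 to 1.07, edgeR FDR = 0.00145, background 0.0598 percent of genes called) and 0.87 ± 0.25 without it (edgeR FDR = 0.9996, background 0 percent, with 201 genes under 0.05 before adjustment). With the term this call held in 15 of 15 fits that left out 1 library, and in the 10-library set alone it also passed, at a log2 change of 0.86 (edgeR FDR = 0.0420, background 0.0538 percent). The 5-library set has 1 library per treatment and gives no test. Within it the log2 difference was 0.87, against 0.87 within the 10. The separate comparisons with DMSO did not pass in the 10-library set, with an edgeR FDR of 0.243 for CD3254 (background 0 percent) and 0.0548 for the joint treatment (background 0.0777 percent).

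**Figure D2:**
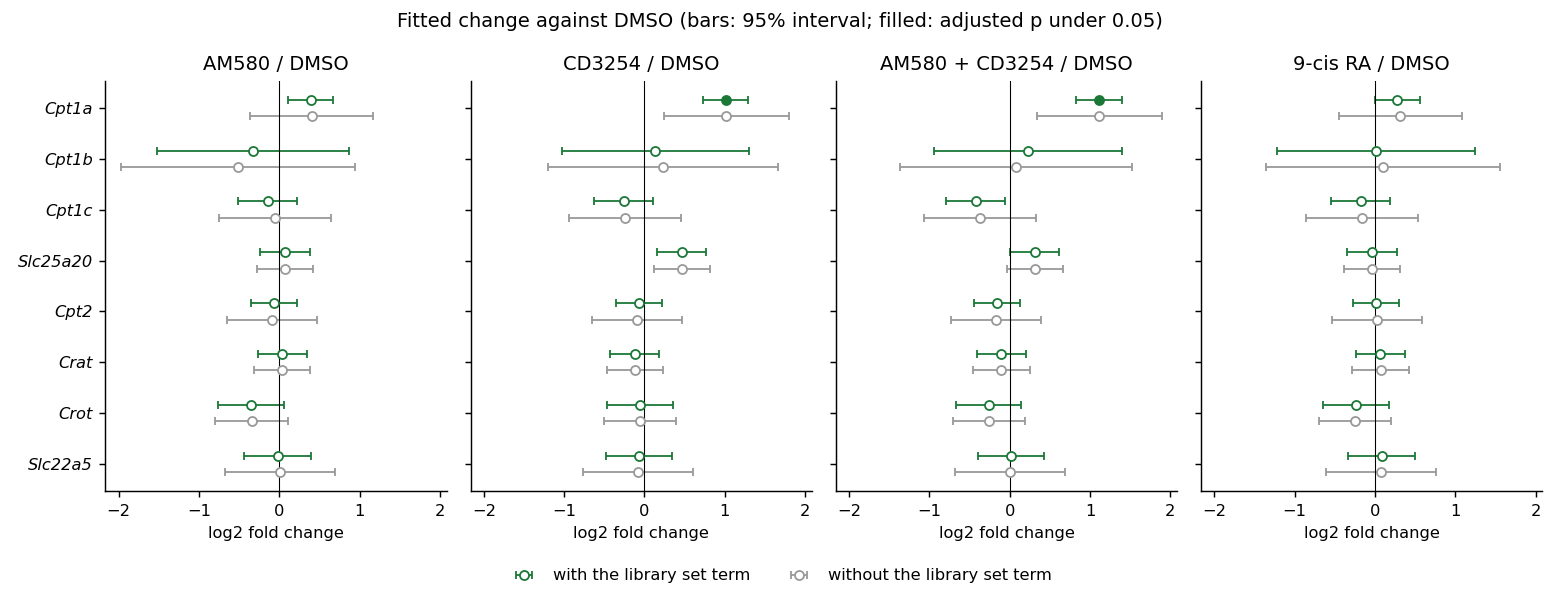
Fitted log2 fold change of each gene against DMSO after AM580, CD3254, both and 9-cis retinoic acid, with 95% intervals, from the fit with the library set term (green) and without it (grey). Filled points have an adjusted p under 0.05, and only Cpt1a after CD3254 (1.01) and after the joint treatment (1.12), both with the term, is filled.

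AM580 and 9-cis retinoic acid gave smaller values for Cpt1a that did not pass the test. With the term, the log2 change against DMSO was 0.39 ± 0.13 with AM580 (interval 0.11 to 0.67, edgeR FDR = 0.808) and 0.28 ± 0.13 with 9-cis retinoic acid (edgeR FDR = 0.980). In that fit 0.0299 percent of genes were called for AM580 and the same share for 9-cis retinoic acid. The joint treatment differed from CD3254 alone by 0.11 ± 0.13 on the log2 scale, with an interval of -0.18 to 0.39, and from AM580 alone by 0.72 ± 0.13 (edgeR FDR = 0.349, background 0.012 percent). The interaction of AM580 with CD3254 was -0.28 ± 0.19 (interval -0.68 to 0.11, edgeR FDR = 0.961). The log2 change of Cpt1a with 9-cis retinoic acid was -0.83 ± 0.13 against the joint treatment (edgeR FDR = 0.1145, background 0.00598 percent) and -0.73 ± 0.13 against CD3254 (edgeR FDR = 0.223), and neither passed. The first of these passed, as the 1 member called there, in the fit with the term that omitted replicate 1 of AM580 and replicate 3 of 9-cis retinoic acid (background 0.0412 percent). In that fit Cpt1a also passed for CD3254 (background 0.0765 percent) and the joint treatment (0.641 percent) against DMSO and for the CD3254 main effect (0.147 percent).

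Slc25a20, the carnitine-acylcarnitine carrier of the inner membrane, lies at chr9:108662088-108684641 on the plus strand. Its level was 30.03, 25.1 and 22.8 CPM with AM580, and 33.2, 37.1 and 31.8 CPM with CD3254. With the joint treatment it was 32.4, 31.9 and 27.6 CPM, with 9-cis retinoic acid 22.5, 27.4 and 22.2 CPM, and with DMSO 23.5, 27.0 and 23.5 CPM. All CD3254 and joint-treatment libraries were above all DMSO libraries, by a narrow margin for joint treatment replicate 3, and all 9-cis retinoic acid libraries were below those of both. Against DMSO every library was higher for 2 of the 8 members with CD3254, Cpt1a and Slc25a20, and for the same 2 with the joint treatment. The background of such separation was 2.36 and 2.39 percent of all genes for those treatments. For 9-cis retinoic acid, 4.52 percent of genes lay wholly below CD3254 and 2.21 percent wholly below the joint treatment.

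The log2 change of Slc25a20 with the term was 0.46 ± 0.14 for CD3254 against DMSO (interval 0.15 to 0.77), 0.31 ± 0.14 for the joint treatment and 0.35 ± 0.10 for the CD3254 main effect (interval 0.13 to 0.57). None passed the adjusted threshold, with edgeR FDR values of 0.9999, 0.9999 and 0.742 in that order. Against CD3254, 9-cis retinoic acid had a log2 change of -0.50 ± 0.14 (edgeR FDR = 0.881). Unlike Cpt1a, Slc25a20 lay at similar levels in both library sets, with a mean log2 difference of 0.03 within treatments. In each set taken by itself the libraries with CD3254 lay above all those without it, 9-cis retinoic acid included. The range with CD3254 was 31.9 to 33.2 CPM, against 22.5 to 30.03 CPM without it, in the 5 libraries, and 27.6 to 37.1 CPM, against 22.2 to 27.4 CPM, in the 10. Cpt1a showed the same order, with 130 to 146 CPM against 67.5 to 84.1 CPM in the 5 and 216 to 256 CPM against 96.5 to 159 CPM in the 10. These were 2 of the 8 members, and over all genes 31 of 16736, or 0.185 percent, met this rule, which was chosen after values had been seen.

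Cpt2, the transferase on the inner side of the inner membrane (chr4:107903981-107923610, minus strand), did not pass the test in any comparison. Its level was 25.0, 32.8 and 33.8 CPM with AM580, 25.7, 34.6 and 30.8 CPM with CD3254, and 30.7, 23.2 and 32.3 CPM with the joint treatment. It was 22.1, 35.3 and 41.7 CPM with 9-cis retinoic acid and 23.3, 39.8 and 34.1 CPM with DMSO, so all treatments overlapped DMSO. The CD3254 main effect with the term was -0.08 ± 0.09 on the log2 scale, with an interval of -0.28 to 0.12.

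Cpt1a and Cpt2 are set side by side per kilobase of exon, since their transcripts differ in length. The ratio of Cpt1a to Cpt2 in CPM per kb was 1.05, 1.52 and 1.29 with AM580, and 1.59, 2.18 and 2.19 with CD3254. It was 2.62, 1.97 and 2.19 with the joint treatment, 0.988, 1.27 and 1.11 with 9-cis retinoic acid and 0.907, 0.987 and 0.886 with DMSO. The 6 libraries with CD3254 had the 6 highest ratios of the 15, by a narrow margin for CD3254 replicate 1 over AM580 replicate 2. All 3 DMSO libraries were under 1, but exon lengths are approximate, so the value 1 has no meaning of its own. The share of gene pairs that separate in this way is not given here. This ratio was chosen after the levels had been seen and is a description. Per length, Cpt1a made up between 49.4% and 87.4% of the summed Cpt1a, Cpt1b and Cpt1c level, lowest in AM580 replicate 1 and highest in joint treatment replicate 1. In every treatment the lowest share was that of the library of the 5-library set. It was 50.3% in DMSO replicate 1 and 52.6% in 9-cis retinoic acid replicate 1, while AM580 replicates 2 and 3 had 79.1% and 78.9%.

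**Figure D3:**
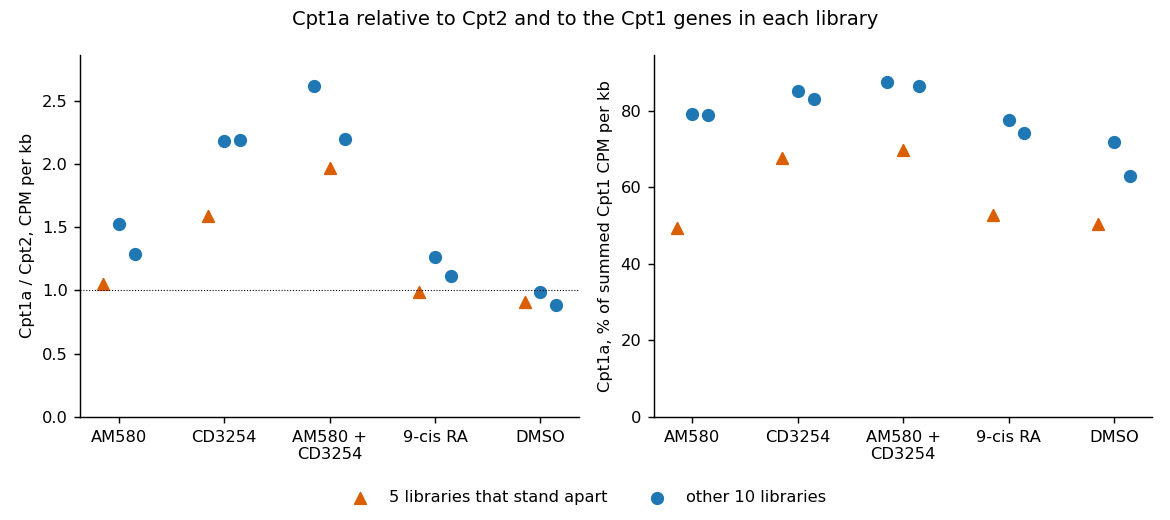
Ratio of Cpt1a to Cpt2 (left, CPM per kb of exon) and Cpt1a as a percentage of the summed Cpt1 genes (right, CPM per kb of exon) in every library by treatment, with triangles for the 5 libraries that stand apart. The ratio is 1.59 to 2.62 in the libraries with CD3254 and 0.886 to 0.987 with DMSO.

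The other Cpt1 genes passed the test in no comparison. Cpt1c, an isoform known from brain that has little transferase activity (chr7:44959372-44974851, minus strand), had 62.7, 30.2 and 26.6 CPM with AM580, and 43.3, 29.9 and 31.8 CPM with CD3254. It had 26.5, 45.1 and 24.5 CPM with the joint treatment, 44.2, 29.7 and 37.1 CPM with 9-cis retinoic acid and 47.3, 36.0 and 40.8 CPM with DMSO. The high value in each treatment was the library of the 5-library set. With the term the log2 change was -0.42 ± 0.17 for the joint treatment against DMSO (interval -0.79 to -0.05, edgeR FDR = 0.893) and -0.27 ± 0.12 for the CD3254 main effect (interval -0.53 to -0.01, edgeR FDR = 0.793), and neither passed. The joint-treatment value averages unlike differences, -0.07 within the 5-library set and -0.59 within the 10-library set. For AM580 against DMSO these were 0.40 and -0.44, and for the CD3254 main effect -0.30 and -0.23. Without AM580 replicate 1 the CD3254 main effect was -0.15. An antisense gene that has no row among the counts used here shares 6.53% of the exon bases of Cpt1c, and the strand setting of the counts is not given in the sources used here.

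Cpt1b, the muscle-type isoform (chr15:89416405-89425863, minus strand), was near the limit of detection, with 5 to 50 reads in a library and 0.24 to 1.33 CPM. Its treatments overlapped, and its level varied 5.49-fold over the libraries. The interval of the CD3254 main effect, -0.48 to 1.17 on the log2 scale with the term, was wide and held changes of either sign. Its count is also uncertain, because GENCODE places the gene Gm44502 over 81.4% of its exon bases on the same strand. Gm44502 has no row among the counts used here, and how reads in the shared bases were counted is not known.

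Crat and Crot make carnitine esters outside the long-chain entry step. Crat, carnitine acetyltransferase (chr2:30400471-30415813, minus strand), acts on acetyl and other short chains and had 31.8, 27.9 and 24.6 CPM with AM580, 25.0, 25.5 and 25.3 CPM with CD3254 and 25.6, 24.0 and 27.0 CPM with the joint treatment. It had 24.0, 28.4 and 34.1 CPM with 9-cis retinoic acid and 25.5, 27.5 and 29.4 CPM with DMSO. Over the 15 libraries it varied 1.42-fold, the narrowest range of the 8 members, and its log2 CD3254 main effect with the term was -0.13 ± 0.10. On the opposite strand Gm16323, with 0 reads in every library, shares 7.63% of its exon bases and Dolpp1, with up to 1533 reads, shares 1.1%.

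Crot, the peroxisomal carnitine octanoyltransferase for medium chains (chr5:8966033-8997324, minus strand), had 15.9, 21.8 and 25.7 CPM with AM580, 23.8, 27.0 and 26.8 CPM with CD3254 and 23.5, 21.2 and 22.6 CPM with the joint treatment. It had 26.8, 24.7 and 16.3 CPM with 9-cis retinoic acid and 27.9, 25.2 and 27.4 CPM with DMSO. The joint-treatment libraries lay below all DMSO libraries (background 2.28 percent of genes) and below all CD3254 libraries (background 2.58 percent). The log2 AM580 main effect, which sets AM580 and the joint treatment against CD3254 and DMSO, was -0.28 ± 0.13 with the term and did not pass (interval -0.57 to 0.01, edgeR FDR = 0.980, background 0.0657 percent).

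Slc22a5, the plasma membrane transporter that brings carnitine into cells (chr11:53864542-53891660, minus strand), had 22.9, 12.3 and 11.8 CPM with AM580, 17.96, 13.8 and 12.4 CPM with CD3254 and 11.6, 18.8 and 16.3 CPM with the joint treatment. It had 19.5, 11.4 and 18.3 CPM with 9-cis retinoic acid and 20.2, 11.7 and 14.7 CPM with DMSO. All treatments overlapped, and the log2 CD3254 main effect with the term was -0.02 ± 0.14 (interval -0.31 to 0.28). For Cpt2, Crat, Crot and Slc22a5 together, the intervals of that effect lay between -0.35 and 0.30 with the term and between -0.53 and 0.44 without it.

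Across genes the levels per length ran from Cpt1a, with a median of 18.7 CPM per kb over the 15 libraries (8.83 to 33.5), through Cpt2 at 13.5 (9.25 to 17.5), to Cpt1c at 6.42, Slc25a20 at 5.65, Slc22a5 at 4.80, Crat at 4.76 and Crot at 4.52 CPM per kb. Cpt1b was far below at 0.139 CPM per kb. Every library of Cpt1a and of Cpt2 lay above every library of Slc25a20, Slc22a5, Crat and Crot, and every library of Cpt1b lay below all others. The ranges of Cpt1a and Cpt2 overlapped each other, that of Cpt1c (4.38 to 11.2) overlapped those of all but Cpt1b, and those of Slc25a20, Slc22a5, Crat and Crot overlapped one another. Exon lengths are the union over annotated transcripts, so these levels are approximate.

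The library sets parted 4 members in the same direction in every treatment. The level in the 5-library set minus that in the 10-library set, taken within each treatment on the log2 scale, averaged -0.83 for Cpt1a and -0.53 for Cpt2, and was below 0 in 5 of 5 treatments for both. It averaged 0.63 for Cpt1c and 0.58 for Slc22a5 and was above 0 in all 5 treatments. Cpt1b averaged 0.79, with AM580 the other way, while Crat at -0.08, Crot at -0.07 and Slc25a20 at 0.03 were near 0 on average. The sets were read from the same counts, so no p-value is given for these differences. The sets follow the axis with 48.3% of the variance, and the share of all genes parted in this way is not given here. The count of 4 members can therefore not be read as particular to the shuttle. The low-oxygen genes moved with the same sets, and their part in the members' levels was not tested. For the CD3254 main effect, with the term, 0 of their 11 tested genes passed and their median log2 change was -0.07. Each treatment has 1 library of the 5 and the term follows that split, so this value does not bear on their part.

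**Figure D4:**
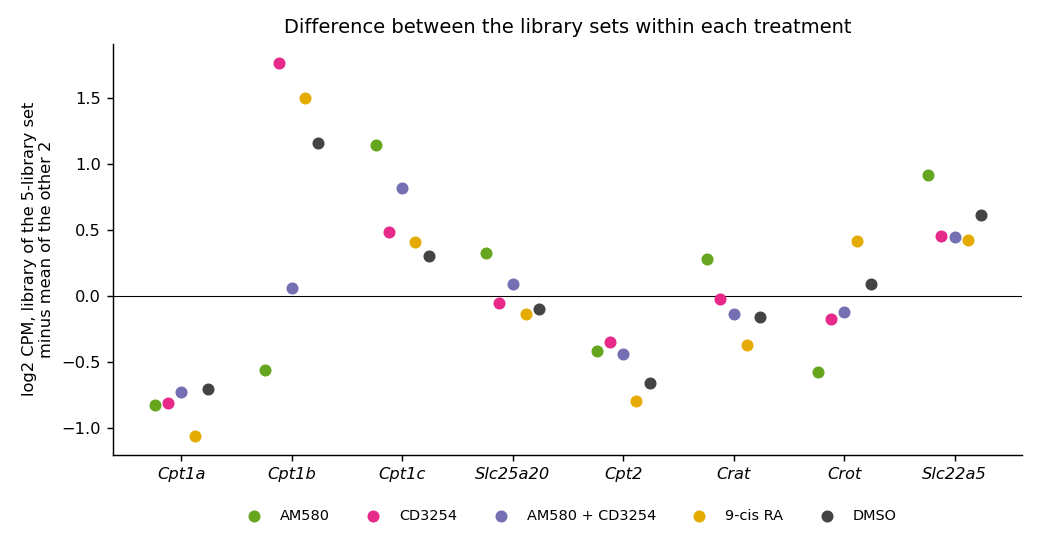
Log2 CPM of the library of the 5-library set minus the mean of the other 2 libraries of the same treatment, for each gene, with 1 point per treatment. Cpt1a and Cpt2 lie below 0 and Cpt1c and Slc22a5 above 0 in all 5 treatments, while Slc25a20, Crat and Crot scatter around 0.

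The genes around the shuttle were described with the term and the CD3254 main effect, where the median log2 change of all genes was about 0. Of 16 genes of mitochondrial β-oxidation, all tested, none passed, 11 were above 0 and the median was 0.06. The smallest p-values among them were those of Acadl, the long-chain acyl-CoA dehydrogenase, at 0.24 ± 0.08, and Hadhb, the β subunit of the trifunctional protein, at 0.19 ± 0.09 (both edgeR FDR = 0.793). Of 11 peroxisomal β-oxidation genes 10 were tested, none passed and the median was 0.04. The acyl-CoA transporters Abcd3, at 0.22 ± 0.10, and Abcd2, at 0.55 ± 0.36, had the smallest p-values there.

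Of 16 genes for fatty acid uptake, activation and the malonyl-CoA that inhibits carnitine palmitoyltransferase 1, 15 were tested, 1 rose, none fell and the median was 0.01, where the background was 0.0598 percent of all genes. The gene that rose was Acsl3, a long-chain acyl-CoA synthetase known for its role in lipid droplets. Its level was 33.0, 66.5 and 78.3 CPM with AM580, 103, 138 and 148 CPM with CD3254, and 149, 86.6 and 128 CPM with the joint treatment. It was 65.2, 71.3 and 42.3 CPM with 9-cis retinoic acid and 59.0, 63.6 and 63.3 CPM with DMSO. The libraries with CD3254 all lay above those of AM580 and DMSO, but the share of all genes with such separation is not given here. The main effect was 2.07-fold, or 1.05 ± 0.17 on the log2 scale (edgeR FDR = 0.0478). Without the term it did not pass (edgeR FDR = 0.793), nor in the 10-library set alone (edgeR FDR = 0.0859). Acaca, the acetyl-CoA carboxylase that makes malonyl-CoA, had 0.60 ± 0.15 and did not pass (edgeR FDR = 0.527).

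Of 8 genes of carnitine synthesis and other carnitine carriers 5 were tested, none passed and the median was 0.11. Slc16a9, described in human as a carnitine exporter, had 1.24 ± 0.48 at mean levels of 0.363 CPM with CD3254 and 0.167 CPM without it, and the mitochondrial basic amino acid carrier Slc25a29 had -0.29 ± 0.19. Of 14 receptors and coactivators of the PPAR and RXR pathway 13 were tested and none passed. Of these, 2 were above 0 and 11 below, with a median of -0.14. The coactivator Ppargc1b had 0.41 ± 0.22 and the liver X receptor Nr1h2 -0.28 ± 0.15. Rarb, a known target of the retinoic acid receptors, had 0.45 ± 0.31 for this effect and rose 9.27-fold with the joint treatment against DMSO (edgeR FDR = 0.00679) and 8.40-fold with 9-cis retinoic acid (edgeR FDR = 0.0296). Without the term neither passed, at an edgeR FDR of 0.0566 for the joint treatment and 0.199 for 9-cis retinoic acid, with nearly the same log2 changes of Rarb (3.21 and 3.05). Mean Rarb levels were low, at 0.332 CPM with DMSO, 0.390 with CD3254, 1.96 with AM580, 3.10 with the joint treatment and 2.77 with 9-cis retinoic acid. The fold changes are thus taken over a baseline under 1 CPM.

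**Figure D5:**
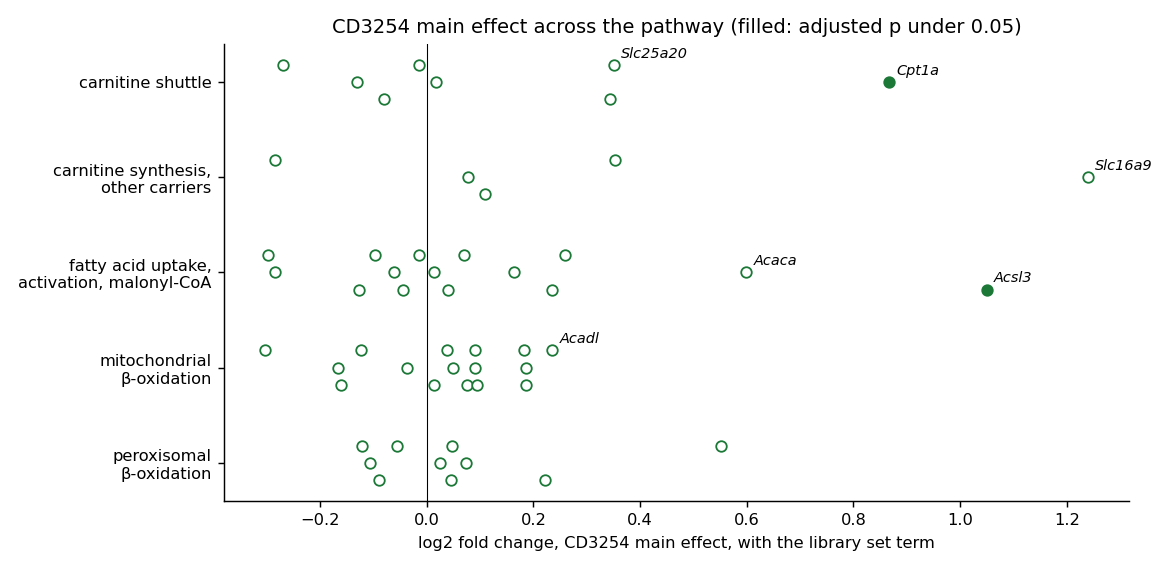
Log2 fold change of the CD3254 main effect (CD3254 and joint treatment against AM580 and DMSO, with the library set term) for each tested gene of the shuttle and of 4 lists around it, 1 point per gene. Filled points have an adjusted p under 0.05, and these are Cpt1a at 0.87 and Acsl3 at 1.05, while the β-oxidation genes lie around 0.

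The genes most like Cpt1a in pattern were found by Pearson correlation of log2 CPM over the 15 libraries among 12330 genes, as a description. Libraries of 1 treatment and 1 library set share what sets them apart, so the points are not independent. Angptl4, a secreted inhibitor of lipoprotein lipase, came first (r = 0.940), then Slc35g1 (r = 0.897) and Colgalt2 (r = 0.878). Angptl4 had a log2 CD3254 main effect of 2.71 ± 0.24 with the term (edgeR FDR = 0.000195). Without the term it was 2.41 ± 0.72 and did not pass (edgeR FDR = 0.9996). Within the 5-library set the difference for Angptl4 was 3.69, and within the 10-library set it was 2.31. Taken as deviations from the library set means, the closest were Lpcat3 (r = 0.928), the phospholipid-remodelling acyltransferase, Scd2 (r = 0.914), a fatty acid desaturase, and the sterol exporter Abcg1 (r = 0.893). Angptl4 was not among these. For the CD3254 main effect, the log2 difference of Abcg1 was 0.61 within the 5-library set and 0.96 within the 10-library set. The genes closest to Slc25a20 over the 15 libraries were Acot1 (r = 0.872), Abcg1 (r = 0.806) and Tmem144 (r = 0.751). As deviations they were Acot1 (r = 0.923), Abcg1 (r = 0.880) and Abcg5 (r = 0.842). Acot1, an acyl-CoA thioesterase, has a near-identical paralog, so its count is uncertain. Between the members, Cpt1a and Slc25a20 had r = 0.574, or 0.813 as deviations, and Cpt1a and Cpt1c had r = -0.779.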

How the data were processed

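The deposited table holds the authors' raw read counts per Ensembl gene for 15 libraries, not normalized. The submitters' processing notes list HISAT2 2.2.1, HTSeq, SAMtools 1.18 and FastQC, with mm10. No source used here gives the strand setting or annotation release. Of 43432 identifiers 42462 matched a symbol. The 5 categories of reads without a gene (18.1% to 28.5% of reads in 14 libraries) stayed out of library sizes and tests. Counts were tested with edgeR 4.0.16 (limma 3.58.1, R 4.3.3): filterByExpr, TMM factors, 1 robust quasi-likelihood fit over 15 libraries, 12 two-sided contrasts, Benjamini-Hochberg adjustment over 16736 genes, threshold 0.05. A second fit added the library set, split at 0 of principal component 1 of log2 CPM (prior count 2), a term read from the counts it helps to test. DESeq2 1.42.0, RLE scaling, no filter, the compared groups alone, a replicate block and leaving out libraries were alternatives. Same-numbered libraries deviated together (r over 0.1 in every pair) for AM580, CD3254 and 9-cis retinoic acid each with DMSO (r from 0.28 to 0.81). With the joint treatment, libraries numbered 3 deviated together (r from 0.35 to 0.59). Those numbered 1 and 2 deviated in opposite directions (r from -0.68 to -0.42). This pattern was read from the counts and not from the labels. The library of the 5-library set is replicate 2 in the joint treatment and replicate 1 elsewhere. The set alone can give such correlations, so they cannot show that the numbers pair cultures. A block within the 12 libraries without the joint treatment was added after the data were seen. The fits were tested on simulated counts. Members, lists and the library set were chosen with earlier results of these data known. Named list genes passed a test or had the 2 smallest p-values of their list for the CD3254 main effect. Sequences are RefSeq's, and positions GENCODE's on GRCm38.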

Additional observations from a re-analysis of the deposited data

How the results depend on the processing

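Without the library set term no member passed in any of the 12 comparisons, nor with RLE scaling, without the filter on low counts, with the compared groups alone, with DESeq2 or without any 1 library. With the term 1 member, Cpt1a, passed for CD3254 and for the joint treatment relative to DMSO and for the CD3254 main effect. The count was also 1 in these 3 comparisons with the term after omitting replicate 1 of AM580 and replicate 3 of 9-cis retinoic acid (Cpt1a FDR = 0.00300, 0.000415 and 0.000475 by edgeR), where it was 1 for 9-cis retinoic acid relative to the joint treatment as well. The background of that fit was 0.0765, 0.641, 0.147 and 0.0412 percent of all genes called, in the same order. With the term and 1 library left out, the count was 1 in 8, 15 and 15 of 15 fits of those 3 comparisons and 0 otherwise. In the 10-library set alone it was 1 for the CD3254 main effect. The origin of the library set was not tested. The log2 CD3254 main effect of Cpt1a was positive in all 38 alternative settings that give it, from 0.75 to 0.98 without any 1 library and from 0.81 to 0.91 with the term and without any 1 library. With the replicate block over all 15 libraries no member passed, and the Cpt1a CD3254 main effect was 0.92 (edgeR FDR = 0.9992). There the library of the 5-library set is replicate 2 in the joint treatment and replicate 1 elsewhere. The block in the 12 libraries without the joint treatment, chosen after seeing the data, called no member against DMSO either, so that relative to the fit with the term it lost the call of Cpt1a for CD3254. Cpt1b had few reads and wide intervals, so small changes were not resolved.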

Other observations

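Members other than Cpt1a and Slc25a20 had close companions in pattern across the 15 libraries, again as a description of libraries that share depth and library set. Cpt1c was most like Slc27a1, a fatty acid transport protein (r = 0.964). Cpt2 was most like Dgcr2 (r = 0.975), Slc22a5 most like Mmd2 (r = 0.975), Crat most like Gpd1, the cytosolic glycerol-3-phosphate dehydrogenase (r = 0.930), and Crot most like Zfp606 (r = 0.947). As deviations from the library set means, Slc22a5 was again closest to Mmd2 (r = 0.961), while Cpt2 was closest to Pycr1, an enzyme of proline synthesis (r = 0.884).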
